A study of Mus musculus with 4 samples.

Results

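The 8 genes described here are Myc and the proteins that share its dimerisation network, of 32285 features in each deposited matrix. They are the activators Myc and Mycn, their common partner Max, and the repressors Mxd1, Mxd3, Mxd4, Mnt and Mxi1. They were selected on raw UMIs summed over the marker-gated cells of each library, which gave a far lower Myc level after Prmt9 knockdown in leukaemia cells of the spleen than in those of the marrow. That contrast is therefore given as a description. The mice were wild-type C57BL/6J recipients, 6 to 8 weeks old by the labels, transplanted with leukaemia cells transformed by MLL-AF9 (MA9 cells). The MA9 cells carried either a doxycycline-inducible hairpin against Prmt9, an arginine methyltransferase (shPrmt9), or a control (Ctrl), so host cells of both groups carried no hairpin. All groups, controls included, drank doxycycline for 7 days. Marrow and spleen were each taken as 1 library per group, from a mouse that the study picked as representative, and the libraries are named by tissue (BM or Spleen) and hairpin (Ctrl or shPrmt9).

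Myc and Mycn are basic helix-loop-helix leucine zipper proteins that bind DNA only as a pair with Max, at sequences called E-boxes whose strongest form reads CACGTG. Mxd1, Mxd3, Mxd4, Mnt and Mxi1 compete with them for Max and bring Sin3 and histone deacetylase corepressors to the same sequences. In the blood system Myc is known for driving ribosome production and growth of progenitors, Mxd1 for its appearance when granulocytes mature, and Mxd3 for its expression in dividing cells. MLL-AF9 leukaemia cells keep Hoxa9 and Meis1 on and are known to depend on Myc.

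Upstream sequence of 3 repressors is shown because the E-box that the network binds is present in that of Mxd4 and Mnt and not in that of Mxd1. The 250 bases before the transcript start come from RefSeq on GRCm38.p6, written 5′ to 3′ on the gene's own strand with CACGTG in capitals. Mxd4 (chr5:34187711-34187960, minus strand) held the motif starting 219 bases before its start, Mnt (chr11:74830674-74830923, plus strand) held it 123 bases before its start, and Mxd1 (chr6:86669160-86669409, minus strand) held none.

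Mxd4: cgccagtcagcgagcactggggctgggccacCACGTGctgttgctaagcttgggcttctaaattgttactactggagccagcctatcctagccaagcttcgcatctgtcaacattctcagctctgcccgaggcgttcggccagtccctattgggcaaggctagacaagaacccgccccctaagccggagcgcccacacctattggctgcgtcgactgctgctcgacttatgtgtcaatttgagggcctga

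Mnt: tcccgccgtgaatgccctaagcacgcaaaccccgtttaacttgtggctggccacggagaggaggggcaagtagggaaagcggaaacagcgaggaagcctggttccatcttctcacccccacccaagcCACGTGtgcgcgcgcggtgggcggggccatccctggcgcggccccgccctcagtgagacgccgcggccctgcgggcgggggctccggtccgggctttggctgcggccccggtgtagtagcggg

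Mxd1: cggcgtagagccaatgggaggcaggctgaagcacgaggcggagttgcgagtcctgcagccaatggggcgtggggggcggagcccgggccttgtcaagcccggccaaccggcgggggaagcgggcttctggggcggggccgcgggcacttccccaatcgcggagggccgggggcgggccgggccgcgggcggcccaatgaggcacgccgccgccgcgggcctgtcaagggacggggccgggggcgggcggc

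CACGTG reads the same on both strands. It was present in 2 of 9 such windows of the 7 members that matched the sequence table (22.2%), in 8 of 56 windows of 51 genes on a list of known Myc targets (14.3%), and in 1978 of 32851 windows of all genes (6.02%). The weaker form CATGTG, searched on both strands and unable to overlap CACGTG, was present in 1 of the 9 member windows (11.1%) and in 12.3% of all windows. A match is a description of letters and not evidence of binding.

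The genes lie on GRCm38 (GENCODE vM21) at chr15:61985391-61990374 on the plus strand for Myc, chr12:12936093-12941914 on the minus strand for Mycn and chr12:76937269-76962201 on the minus strand for Max. Mxd1 lies at chr6:86647042-86669161, Mxd3 at chr13:55325168-55329823 and Mxd4 at chr5:34173883-34187720, all on the minus strand. Mnt lies at chr11:74830920-74845725 and Mxi1 at chr19:53310518-53375810, both on the plus strand. The libraries count tags near the 3′ end of transcripts, so a level (CPM, the UMIs of a gene times 1e+06 over all UMIs of the cells concerned) is compared between cells of different libraries and not between genes.

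The 4 matrices held 8648 to 11315 barcodes and 84009744 to 188030429 UMIs. After filtering 8065 to 11174 cells per library remained, and any pair of libraries shared 15 to 35 barcodes. In Spleen-shPrmt9, 2444 cells (30.3%) fell in no class, against 434 to 1269 in the other libraries. Transcripts of 4 Y-linked genes summed to 211 (Ctrl) and 150 (shPrmt9) CPM in the spleen libraries but to 0.0058 and 0.0107 in the marrow ones. The marrow and spleen libraries of a group therefore differ in Y-linked transcripts as well as in tissue, and whatever lies behind the 2 differences cannot be told apart in any comparison between tissues. Xist, transcribed in female cells, was 7.39 CPM in BM-Ctrl and 147 in BM-shPrmt9 over all cells, and 0.427 and 27.05 in the gated cells described next, so the marrow groups differ in a sex-linked transcript as well as in the hairpin. The part of that in the marrow ratios was not tested.

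Leukaemia cells were sought by a gate on Hoxa9, Hoxa10, Hoxa7, Hoxa5, Meis1 and Pbx3, the genes that MLL fusions are known to sustain, and the cells that passed are called Hoxa-gated cells. They numbered 1679 in BM-Ctrl, 1943 in BM-shPrmt9, 37 in Spleen-Ctrl and 179 in Spleen-shPrmt9, with median depths of 58682, 49544, 44565 and 26765 UMIs. The 6 gate genes summed to 461, 630, 428 and 446 CPM in them, against 60.2, 47.7, 14.8 and 13.4 in all other cells of the same libraries. In the spleen they carried Y-linked transcripts at 7.06 (Ctrl) and 16.1 (shPrmt9) CPM, while the other spleen cells carried 215 and 157.

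The label of leukaemia cell held by leading genes only in BM-Ctrl, where the 10 genes most above the rest of the library included Hoxa9 and Hoxa10 and no marker of another class. In BM-shPrmt9, 3 neutrophil progenitor markers (Ctsg, Elane, Prtn3) stood among the leading 10 beside Hoxa9 and Hoxa10. Spleen-Ctrl was led by Elane, Prtn3 and other granule genes with none of the gate genes, and Spleen-shPrmt9 by the stefin genes Stfa1 and Stfa2l1 with Prtn3 and Elane. A list of 6 immature neutrophil markers summed to 1269, 5383, 11962 and 32359 CPM in the 4 groups of Hoxa-gated cells, a list of 5 neutrophil progenitor markers to 8588, 10986, 6232 and 1634, and 6 mature neutrophil markers to 306, 732, 89.9 and 286, with no marker of these lists at 0. The median level of S100a8, a granule protein gene of maturing neutrophils, was 492, 8402, 17431 and 71645 CPM per cell. Those differences run alongside every result in Hoxa-gated cells below. T-cell markers stood at 57.8 (Ctrl) and 127 (shPrmt9) CPM in those of the spleen.

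Prmt9 itself, the knockdown target, was 11.4 CPM in Hoxa-gated cells of BM-Ctrl and 6.38 in BM-shPrmt9, a ratio of 0.561 (95% counting interval 0.509 to 0.618). In the spleen it was 18.0 in Ctrl on 28 UMIs and 6.80 in shPrmt9 on 35 UMIs, a ratio of 0.378 (0.224 to 0.646). The knockdown libraries were thus lower in both tissues. In spleen, T-like and B-like cells, which carry no hairpin, were lower too, with Prmt9 ratios of 0.630 (0.529 to 0.749) and 0.765 (0.657 to 0.888). All spleen cells outside the gate, which include cells of undetermined type, had 13.2 and 7.14 CPM. In marrow the cells outside the gate had 9.31 and 7.53, and the T-like and B-like ratios were 1.03 and 1.08 with intervals that hold 1.

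Myc was 69.95 CPM in Hoxa-gated cells of BM-Ctrl (68.3 to 71.6, 7049 UMIs), 55.4 in BM-shPrmt9 (54.0 to 56.9, 5719 UMIs), 72.6 in Spleen-Ctrl (59.8 to 87.2, 113 UMIs) and 7.58 in Spleen-shPrmt9 (5.39 to 10.4, 39 UMIs). The spleen knockdown library stood far below the others, BM-shPrmt9 stood below both controls, and the intervals of the 2 controls overlapped. The ratio of shPrmt9 to Ctrl was 0.792 (0.765 to 0.820) in marrow and 0.104 (0.0706 to 0.152) in spleen, and the spleen ratio divided by the marrow ratio was 0.132 (0.0915 to 0.190). The control libraries of the 2 tissues gave a ratio of 1.04 (0.854 to 1.25), while Spleen-shPrmt9 over BM-shPrmt9 was 0.137 (0.0971 to 0.187). With 1 library per group these intervals cover counting error only and say nothing of the spread between mice. Free RNA, estimated from transcripts that these cells should lack, would give 2.84, 2.09, 1.32 and 3.77 CPM of Myc in the 4 groups, so about 3.77 of the 7.58 measured in Spleen-shPrmt9 is at the level of that background.

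**Figure D1:**
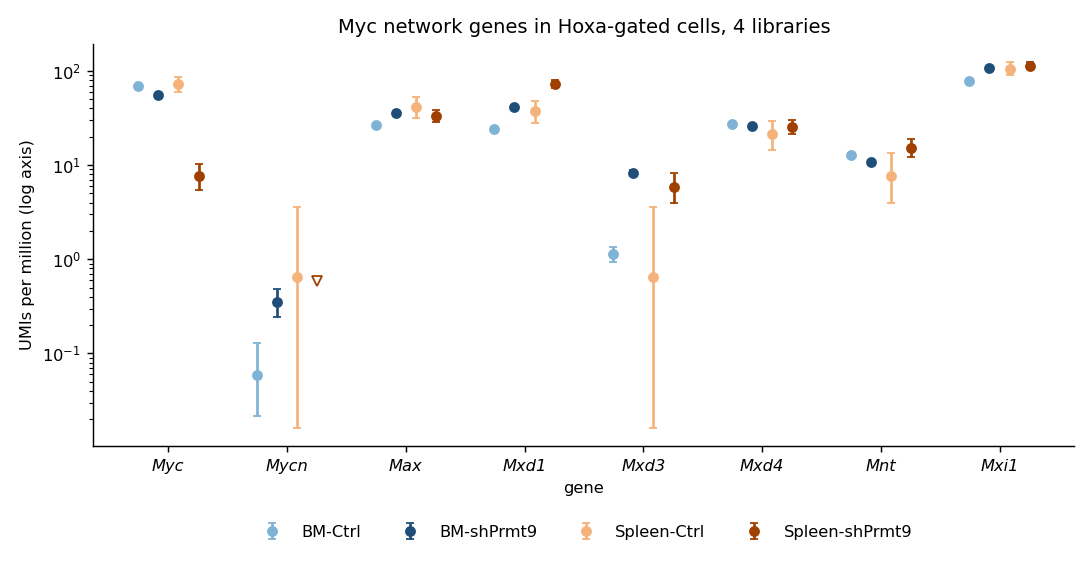
Level of each of the 8 genes in Hoxa-gated cells (CPM, log axis) in the 4 libraries. Points are sums over 1679, 1943, 37 and 179 cells, bars are exact 95% Poisson intervals, and the open triangle marks the level that 3 UMIs would give where none were counted. Myc in Spleen-shPrmt9 sits at 7.58, below the 55.4 to 72.6 of the other libraries, while Mxd1 is highest there at 72.7.

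Fewer Hoxa-gated cells held a Myc UMI in the knockdown library of each tissue, at full depth and at equal depth. Such shares do not tell a lower level in each cell from a different mix of cells. In marrow the cells without a Myc UMI had median depths of 45884 (Ctrl) and 34527 (shPrmt9) UMIs. In marrow 473 Hoxa-gated control cells (28.2%) and 893 knockdown cells (46.0%) had no Myc UMI, and in spleen 17 control cells (45.9%) and 154 knockdown cells (86.0%). At least 10 Myc UMIs were found in 230, 179, 3 and 0 cells. In Spleen-Ctrl 1 cell held 22 of the 113 Myc UMIs (19.5%). When every cell was thinned to 2000 UMIs so that depth was equal, Myc was seen in 11.9% of control and 8.08% of knockdown marrow cells (exact intervals 10.3 to 13.5 and 6.91 to 9.39). In spleen it was seen in 13.5% of control cells (4.54 to 28.8) and in 0 of 179 knockdown cells, which at this depth allows a share of up to 1.68% by the limit of 3 cells (exact upper bound 2.04%). At full depth, which differs between the groups, Myc was seen in 71.8% and 54.0% of the marrow cells and in 54.1% and 13.97% of the spleen cells. Mature neutrophil-like cells of BM-Ctrl, which have little Myc, showed it in 0.365% of cells at the same depth, and their own median depth was 3873.5 UMIs.

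Because S100a8 differed between the libraries, Myc was also read within 5 ranges of its level per cell (edges at 3000, 10000, 30000 and 60000 CPM), a division made after seeing the data. In BM-Ctrl Myc was 75.6, 61.0, 43.3, 9.44 and 8.93 CPM from the lowest range to the highest. BM-shPrmt9 gave 73.1, 61.4, 42.6, 20.6 and 6.87. Myc was thus lower in each higher range of both marrow libraries, and the libraries were close to each other in the first 3 ranges. The lowest range held 1215 of the BM-Ctrl cells but 668 of the BM-shPrmt9 cells, and the highest held 31 and 250. In the fourth range BM-shPrmt9 was higher, at a ratio of 2.18 (1.31 to 3.88) on 16 control UMIs. S100a8 levels were not corrected for free RNA, and T-like cells carried 1516 CPM of it in BM-Ctrl and 4352 in BM-shPrmt9. The lowest edge of 3000 lies between those values, so a range may not hold like cells in both libraries, which was not tested. Pooled over the ranges the marrow ratio was 0.980 (0.944 to 1.02), in place of 0.792. Leaving out the gated cells that also pass a neutrophil gate moved it the other way, to 0.433 (0.368 to 0.508), on 50.8 and 22.0 CPM in 345 and 219 cells.

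In the spleen the difference in Myc remained within these ranges but rested on few UMIs. Spleen-Ctrl gave 109, 45.8, 79.0, 140 and 4.16 CPM on 40, 13, 44, 15 and 1 UMIs. Spleen-shPrmt9 gave 14.5, 10.2, 18.1, 4.72 and 4.91 on 3, 2, 15, 5 and 14 UMIs. In the 4 lower ranges the control library was higher in every one, and in the highest, which held 108 of the 179 Spleen-shPrmt9 cells and 8 of the 37 Spleen-Ctrl cells, the levels were 4.16 and 4.91. The pooled spleen ratio was 0.176 (0.115 to 0.270). The ranges are ranges of 1 gene and not cell types, and the part that maturation state has in the spleen value was not tested further.

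**Figure D2:**
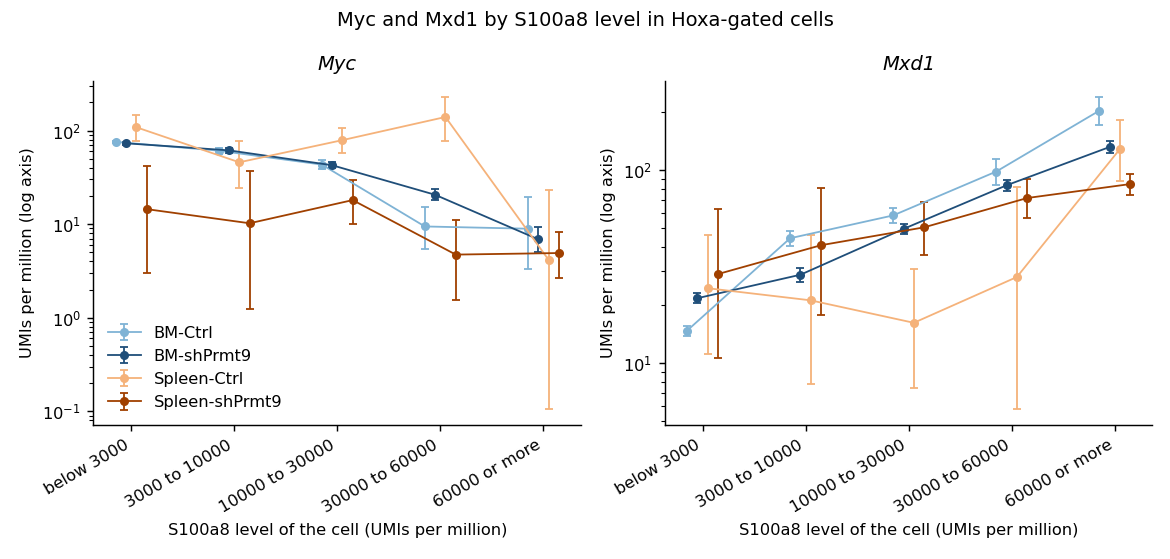
Level of Myc and of Mxd1 (CPM, with exact 95% Poisson intervals) in Hoxa-gated cells divided by the S100a8 level of each cell, 1 line per library. Myc is 75.6 and 73.1 in the lowest range of BM-Ctrl and BM-shPrmt9 and 8.93 and 6.87 in the highest, while Mxd1 goes from 14.7 and 21.7 to 204 and 132.

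Mycn, the relative of Myc best known from neural tissue and stem cells, was barely present. It was 0.0595 CPM in BM-Ctrl on 6 UMIs, 0.349 in BM-shPrmt9 on 36 UMIs and 0.642 in Spleen-Ctrl on 1 UMI. Spleen-shPrmt9 had none, which allows up to 0.583. The marrow ratio was 5.86 (2.45 to 17.0), with a wide interval because the control level rests on those 6 UMIs.

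Max, the common partner of the other members, was 26.5 CPM in BM-Ctrl, 35.9 in BM-shPrmt9, 41.1 in Spleen-Ctrl and 33.2 in Spleen-shPrmt9. It was higher with knockdown in marrow, at a ratio of 1.35 (1.29 to 1.42). In spleen the ratio was 0.809, with an interval from 0.603 to 1.10 that holds 1. The spleen ratio of Myc, 0.104, lies outside that interval.

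Mxd1, the repressor that appears when granulocytes mature, was 24.0 CPM in BM-Ctrl, 41.6 in BM-shPrmt9, 37.2 in Spleen-Ctrl and 72.7 in Spleen-shPrmt9. The knockdown library was higher in both tissues, with ratios of 1.74 (1.65 to 1.82) and 1.95 (1.48 to 2.62). Mxd1 was higher in each higher S100a8 range of 3 libraries: it went from 14.7 in the lowest range to 204 in the highest in BM-Ctrl, and from 21.7 to 132 in BM-shPrmt9. In Spleen-shPrmt9 it went from 28.9 to 84.8. Spleen-Ctrl kept no such order, with 24.4, 21.1, 16.2, 27.9 and 129 from the lowest range to the highest. The marrow ratio was above 1 in the lowest range, at 1.47 (1.35 to 1.61), and below 1 in the next, at 0.647 (0.572 to 0.731), in the third, at 0.851 (0.761 to 0.952), and in the highest, at 0.648 (0.540 to 0.782). These opposite differences gave a pooled marrow ratio of 0.983 (0.933 to 1.04), and the pooled spleen ratio was 1.21 (0.911 to 1.60). Without the cells that also pass a neutrophil gate the marrow ratio was 2.41.

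Mxd3, the member tied to dividing cells, was 1.13 CPM in BM-Ctrl (114 UMIs), 8.33 in BM-shPrmt9 (860 UMIs), 0.642 in Spleen-Ctrl (1 UMI) and 5.83 in Spleen-shPrmt9 (30 UMIs). The ratio was 7.37 (6.05 to 9.04) in marrow. In spleen it was 9.08, with an interval from 1.51 to 370 because the control has a single UMI. The marrow ratio within S100a8 ranges was 6.77 (5.51 to 8.32), close to the ratio of the sums, but without the cells that also pass a neutrophil gate it was 1.98 (1.06 to 3.66), under 2-fold.

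Mxd3 was then read against 27 proliferation genes, whose summed level split the cells at 1000 and 3000 CPM. In BM-Ctrl it was 0.190, 0.169 and 3.32 CPM from the lowest range to the highest, and in BM-shPrmt9 0.598, 2.09 and 16.7. It was highest in the most proliferative cells of both marrow libraries and higher with knockdown in each range. All 30 Mxd3 UMIs of Spleen-shPrmt9 came from the 19 cells of the highest range, at 40.9 CPM there. The highest range held 420 of 1679 control and 660 of 1943 knockdown cells in marrow. Myc followed no such order: it was 67.4, 84.6 and 65.8 in control marrow and 36.1, 74.7 and 52.7 with knockdown.

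Mxd4, a repressor found in resting and differentiating cells, was 27.6 CPM in BM-Ctrl, 26.3 in BM-shPrmt9, 21.2 in Spleen-Ctrl and 25.7 in Spleen-shPrmt9. Its ratios were 0.952 (0.903 to 1.004) in marrow and 1.21 (0.821 to 1.83) in spleen, and both intervals hold 1. Mnt, the repressor present in most cell types, was 12.7 and 10.8 in marrow and 7.71 and 15.4 in spleen. Its marrow ratio of 0.846 (0.780 to 0.918) lay below 1 and its spleen ratio of 1.99 (1.08 to 4.02), on 12 control UMIs, lay above 1.

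Mxi1, the repressor also called Mxd2, was 78.1 CPM in BM-Ctrl, 107 in BM-shPrmt9, 106 in Spleen-Ctrl and 114 in Spleen-shPrmt9. The marrow ratio was 1.37 (1.33 to 1.41) and 1.20 (1.17 to 1.24) within S100a8 ranges. The spleen ratio was 1.08, and its interval from 0.906 to 1.29 holds 1. BM-Ctrl was thus the library that stood below the other 3.

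**Figure D3:**
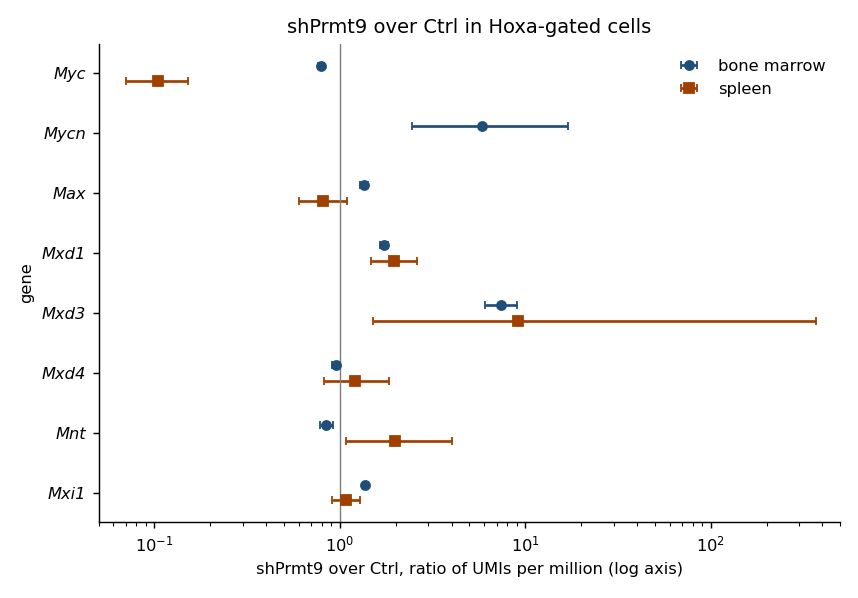
Ratio of shPrmt9 to Ctrl (log axis, 1 marked by the line) for each gene in Hoxa-gated cells, circles for marrow and squares for spleen, with exact 95% counting intervals. Myc in spleen sits at 0.104, Mxd3 lies at 7.37 in marrow and 9.08 in spleen, and Mycn has no spleen ratio because Spleen-shPrmt9 has no UMI.

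Read against all genes, the members' counts were small. In marrow 2 of 8 members (Mxd3 and Mycn) were at least 2-fold higher with knockdown, where 13% of 14339 genes were, and 0 were at least 2-fold lower, where 7.01% of genes were. In spleen 1 of 7 members with a ratio (Myc) was at least 2-fold lower, where 15% of 9455 genes were, and 1 (Mxd3) was at least 2-fold higher, where 11.9% were. Those contrasts are the ones that chose the genes, so nothing is read from the counts. The median log2 ratio of the members was 0.45 in marrow and 0.28 in spleen, beside 0.02 and -0.08 for all genes.

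The share of Myc and Mycn in the summed UMIs of the activators and the 5 repressors gives the make-up of the network in 1 number. It was 32.8% in BM-Ctrl (exact interval 32.2 to 33.4), 22.3% in BM-shPrmt9 (21.8 to 22.8), 29.8% in Spleen-Ctrl (25.2 to 34.6) and 3.14% in Spleen-shPrmt9 (2.24 to 4.27). The repressors summed to 144, 194, 173 and 234 CPM. The knockdown libraries had both the lower share and the higher repressor sum in each tissue, and the share in Spleen-shPrmt9 was the lowest of the 4. Myc gave 7049 of the 7055 activator UMIs in BM-Ctrl and all 39 in Spleen-shPrmt9. The share therefore largely restates the contrast that chose the genes and is no further result. It adds tags of different genes, so it is compared between libraries and is not a ratio of activators to repressors.

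Across the cell types of control marrow, Myc was 85.6 CPM in cells of the neutrophil progenitor gate, 69.95 in Hoxa-gated cells, 55.7 in T-like cells and 38.9 in B-like cells. Basophil-like cells had 20.8 and monocyte-like cells 9.96. Mature neutrophil-like, immature neutrophil-like and erythroid-like cells were lowest at 1.73, 1.52 and 1.18, with intervals that overlap, as did those of B-like with basophil-like and of basophil-like with monocyte-like cells. Free RNA was put at 9.10%, 5.79% and 2.88% of the library level in these lowest classes, and Myc over all BM-Ctrl cells was 53.4 CPM. Their Myc values are thus no higher than that background would give. In Spleen-Ctrl the order was Hoxa-gated 72.6, T-like 48.1, B-like 40.6, NK-like 36.6 and erythroid-like 10.4, and the interval of the NK-like cells overlapped those of both the T-like and the B-like cells. In Spleen-shPrmt9 it was B-like 49.8, T-like 41.0, NK-like 21.4, Hoxa-gated 7.58, immature neutrophil-like 4.64 and erythroid-like 1.34. Hoxa-gated cells thus stood above the other 4 classes in control spleen and below 3 of the other 5 in knockdown spleen, where they overlapped the immature neutrophil-like cells.

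Neutrophil-like cells stood at the top of the range for Mxd1 and near the bottom for Myc. Mxd1 was 1043 and 882 CPM in mature neutrophil-like cells of BM-Ctrl and BM-shPrmt9 and 386 and 410 in immature ones. Max was 220 and 187 in the mature cells. Mxd1 stood among the 10 leading genes of mature neutrophil-like cells in BM-Ctrl. Myc and Mycn made up 0.146% and 0.125% of the network UMIs there, with Myc no higher than free RNA would give.

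**Figure D4:**
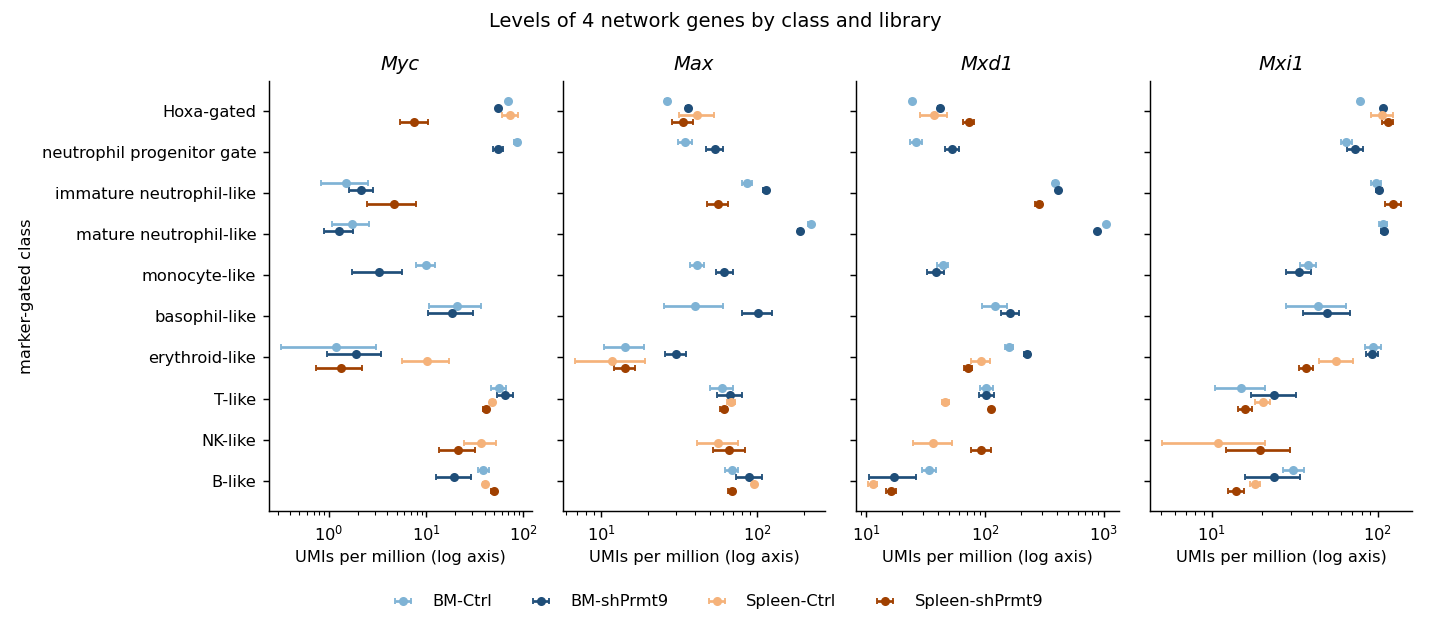
Levels of Myc, Max, Mxd1 and Mxi1 (CPM, log axis, exact 95% Poisson intervals) in 10 cell classes and the 4 libraries, drawn where a class had at least 50 cells or is the Hoxa-gated class. Myc runs from 1.18 in erythroid-like to 85.6 in neutrophil progenitor-gated cells of BM-Ctrl, and Mxd1 from 24.0 in Hoxa-gated cells to 1043 in mature neutrophil-like cells.

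T-like cells of the spleen, which carry no hairpin, differed most in Mxd1. It was 45.9 CPM in Spleen-Ctrl (2029 cells) and 112 in Spleen-shPrmt9 (2769 cells), a ratio of 2.45 (2.27 to 2.64). Mxd1 was the 1 of 7 members at least 2-fold higher there, where 4.89% of 12508 genes were, and 0 were 2-fold lower, where 8.83% were. Free RNA would give 1.85 and 5.47 CPM of Mxd1. Markers of immature neutrophils in the same cells summed to 7.53 and 89.6 CPM, S100a8 was 26.1 and 273, and the T-cell coreceptor gene Cd8a was 182 and 126; their part in the result was not tested. Myc was 48.1 and 41.0, a ratio of 0.854 (0.781 to 0.933), and Mnt had a ratio of 1.21 (1.08 to 1.36). In marrow T-like cells Mxd1 was 102 in both groups, and all 7 members had intervals that hold 1. None of those 7 was past 2-fold, where 3.35% of 9078 genes were higher and 4.04% lower.

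NK-like cells of the spleen (61 in Ctrl and 111 in shPrmt9) gave like values. Mxd1 was 36.6 and 92.7 CPM, a ratio of 2.53 (1.67 to 3.94). Mxd4 was 24.4 and 55.3, a ratio of 2.26 (1.35 to 3.96), and Mnt had a ratio of 1.93 (1.08 to 3.60). The repressors Mxd1 and Mxd4 were the 2 of 6 members past 2-fold higher, where 9.01% of 7216 genes were, and 0 were lower, where 3.08% were. Immature neutrophil markers summed to 3.66 and 71.3 in these cells. The share of Myc and Mycn in the network was 30.3% and 9.34%.

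B-like cells of the spleen went the other way for Myc. It was 40.6 CPM in Spleen-Ctrl (5888 cells) and 49.8 in Spleen-shPrmt9 (1243 cells), a ratio of 1.23 (1.14 to 1.32). Max was lower with a ratio of 0.723 (0.683 to 0.766), as were Mnt at 0.675 (0.6004 to 0.756), Mxi1 at 0.764 (0.671 to 0.869) and Mxd4 at 0.826 (0.774 to 0.882). Mxd1 was higher at 1.43 (1.25 to 1.64), on low levels of 11.3 and 16.1. Mxd3 had a ratio of 2.08 (1.29 to 3.33) on 39 and 38 UMIs and was the 1 member past 2-fold higher, where 5.69% of 13092 genes were, and 0 of 7 were 2-fold lower, where 10% were. Median depth differed between these cells, at 6408.5 UMIs in Ctrl and 14412 in shPrmt9. Their B-cell markers differed too: Ighd was 595 and 113 CPM, Ebf1 940 and 408, and Ighm 3766 and 6385, while the other gate markers were lower. Apoe led the genes of Spleen-shPrmt9. The gate may thus not hold like B cells in both libraries, and the part of that in these ratios was not tested. The share of Myc and Mycn was 25.1% and 32.6%.

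The marrow held further differences, most on fewer UMIs. In cells of the neutrophil progenitor gate (235 and 309) Myc was 85.6 and 55.0 CPM, a ratio of 0.643 (0.555 to 0.742). Mxd1 was 26.2 and 52.5 and Mxd3 1.08 and 4.98, on 11 and 22 UMIs for Mxd3. They were the 2 of 7 members past 2-fold higher, where 7.62% of 11035 genes were, and 0 were lower, where 5.67% were. These directions were also those of Hoxa-gated marrow cells, and median depth was 39873 UMIs in Ctrl and 5091 in shPrmt9. In B-like cells (1130 and 112) Myc was 38.9 and 19.5 CPM, a ratio of 0.502 (0.315 to 0.764), and Mxd1 was 33.6 and 17.1, a ratio of 0.509 (0.309 to 0.798) that became 1.03 (0.784 to 1.33) when cells passing the gates of 2 classes were kept. Mxd3 at 2.31 (1.38 to 3.76) was the 1 of 7 members past 2-fold higher there, where 4.78% of 10286 genes were, and 0 were 2-fold lower, where 6.83% were. In monocyte-like cells Myc was 9.96 and 3.29, a ratio of 0.330 (0.169 to 0.595) on 86 and 13 UMIs, and Mxd3 was 8.34 and 1.01, a ratio of 0.121 (0.0322 to 0.324) on 72 and 4 UMIs. These were the 2 of 7 members past 2-fold lower in that class, where 8.27% of 10790 genes were, and 0 were 2-fold higher, where 6.34% were. Mxd3 was also lower in immature neutrophil-like cells, at 10.2 and 4.01 (ratio 0.393, 0.292 to 0.528), which is opposite to its direction in Hoxa-gated cells. It was the 1 of 7 members past 2-fold lower there, where 9.26% of 10844 genes were, and 0 were higher, where 4.11% were. Max had a ratio of 1.49 (1.26 to 1.76) in monocyte-like cells and of 1.31 (1.21 to 1.42) in immature neutrophil-like cells. In erythroid-like spleen cells Myc was 10.4 and 1.34, a ratio of 0.129 (0.0581 to 0.289) on 14 and 15 UMIs. It was the 1 of 6 members past 2-fold lower, where 27% of 4901 genes were, and 0 were higher, where 9.57% were. Free RNA was put at 3.22% of the library level in those knockdown cells, and Myc over all Spleen-shPrmt9 cells was 44.9 CPM. The 1.34 is thus no higher than that background would give. TMM scaling raised log2 ratios of this class by 0.83.

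Max also had ratios above 1 in basophil-like and erythroid-like marrow cells. It was 40.0 and 100.4 CPM in basophil-like cells (53 and 65 cells), a ratio of 2.51 (1.57 to 4.19), and 14.2 and 30.1 in erythroid-like cells, a ratio of 2.12 (1.53 to 2.98) that was 1.75 with TMM scaling. Mnt was 4.12 (0.946 to 37.3) on 2 and 14 UMIs in erythroid-like and 2.04 (0.828 to 5.71) on 7 and 20 UMIs in basophil-like cells, and both intervals hold 1. In basophil-like cells 2 of 7 members (Max and Mnt) were past 2-fold higher, where 4.87% of 6678 genes were, and 0 lower, where 3.4% were. In erythroid-like cells 2 of 7 (Max and Mnt) were past 2-fold higher, where 18.5% of 6269 genes were, and 0 lower, where 1.53% were. Mxd1 in erythroid-like cells was 159 and 226, a ratio of 1.42 (1.29 to 1.58). In mature neutrophil-like cells Mxd3 alone, at 5.86 (1.47 to 50.9) on 2 and 26 UMIs, was past 2-fold higher, where 5.07% of 10606 genes were, and 0 were lower, where 4.84% were.

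The genes that carry out the network's work differed less than Myc in Hoxa-gated cells. Of 11 Myc cofactors, including the histone acetyltransferase scaffold Trrap, the median log2 ratio was 0.12 in marrow and -0.34 in spleen. The helicases Ruvbl1 and Ruvbl2 were lowest in spleen, with ratios of 0.347 and 0.419. Of 10 corepressor genes used by the Mxd proteins and Mnt, 5 were higher and 5 lower in each tissue. Among them the histone deacetylase gene Hdac1 had a marrow ratio of 1.52, and Hdac2 (0.394) and Rbbp7 (0.475) were lowest in spleen.

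Genes that set how long the Myc protein lasts were also read. Of 13 in marrow 4 were higher and 9 lower, with a median log2 ratio of -0.04, close to the 0.02 of all genes. Of 11 in spleen 3 were higher and 8 lower, with a median of -0.53 beside -0.08. The kinase gene Pim1, whose product stabilises Myc, was 351 and 166 CPM in marrow, a ratio of 0.471 (0.463 to 0.480). Skp2, a ubiquitin ligase subunit, was 7.02 and 17.8, a ratio of 2.53 (2.32 to 2.77), and Cip2a, which shields Myc from the phosphatase PP2A, had ratios of 2.08 in marrow and 0.246 in spleen. The genes known to regulate Myc transcription had a median log2 ratio of -0.02 in marrow and -0.36 in spleen, with Cnbp lowest in both tissues at 0.595 and 0.461. Of the wider network Mlx, the partner of the glucose-sensing Mondo proteins, had ratios of 0.530 in marrow and 0.641 in spleen.

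Known Myc target genes were lower in Spleen-shPrmt9 almost throughout. Of 55 measured 54 were lower, 44 of them at least 2-fold, where 15% of all genes were, with a median log2 ratio of -1.60 beside -0.08 for all genes. In marrow 41 of 56 were lower, 3 of them at least 2-fold, where 7.01% of all genes were, with a median of -0.35 beside 0.02. The spermidine synthase gene Srm was 144 and 13.02 CPM in spleen, a ratio of 0.0905 (0.0678 to 0.119), and 146 and 112 in marrow, a ratio of 0.769 (0.751 to 0.788). The nucleolar chaperone gene Npm1 had ratios of 0.238 in spleen and 0.656 in marrow. Plk1, a mitotic kinase gene, was the exception in spleen at 1.07 (0.650 to 1.82). Lowest in marrow was the phosphatase gene Dusp2 at 0.350, and highest the replication helicase gene Mcm4 at 2.48.

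Ribosome production and metabolism, the processes Myc is known to drive, gave like values in spleen, while in marrow the metabolic genes differed less. Of 16 genes of RNA polymerase I and the nucleolus 15 were lower in spleen (median log2 ratio -1.63, 9 at least 2-fold, beside 15% of all genes) and 12 in marrow (median -0.35, 0 at least 2-fold, beside 7.01%). Polr1b, a subunit of that polymerase, had a spleen ratio of 0.159, and Dkc1, the pseudouridine synthase gene, was the 1 that was higher, at 1.28 (1.18 to 1.41). Of 20 metabolic genes 16 were lower in spleen (median -1.53, 12 at least 2-fold, beside 15% of all genes). In marrow 11 were lower and 9 higher (median -0.13, 2 at least 2-fold lower, beside 7.01%). Cad, which starts pyrimidine synthesis, had a spleen ratio of 0.166. Highest in spleen were Slc2a1 at 1.76 (1.24 to 2.55) and Slc3a2 at 1.70 (1.48 to 1.95), and in marrow Tfrc at 2.03 and Slc2a1 at 1.85. Odc1, the ornithine decarboxylase gene, was 359 and 172 CPM in marrow, a ratio of 0.480 (0.471 to 0.489).

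Most genes that Myc is known to repress were higher in Spleen-shPrmt9. Of 12 measured there 10 were higher, 6 at least 2-fold, where 11.9% of all genes were, with a median log2 ratio of 0.97. Klf4, a factor of myeloid differentiation, had a ratio of 4.14 on 3 control UMIs, and the cell-cycle inhibitor gene Cdkn1a was 157 and 292 CPM, a ratio of 1.86 (1.63 to 2.14). Cebpa, the granulocyte regulator gene, was lower at 0.446. In marrow 9 of 13 were lower (median -0.40), led by Gadd45a at 0.285. Proliferation genes were higher in marrow for 25 of 27 (median 0.56) and lower in spleen for 22 of 27 (median -0.58). Without the cells that also pass a neutrophil gate both marrow directions turned, to a median of 0.38 for the repressed genes and -0.98 for the proliferation genes. Interferon-stimulated genes, read for comparison, had medians of 2.68 in marrow and 3.12 in spleen.

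Within ranges of S100a8 level the marrow median of the Myc targets was -0.02, with 27 genes higher and 29 lower. The spleen median was -1.001, with 53 of 55 lower and 28 at least 2-fold. For the nucleolar genes the medians were -0.08 and -0.82, for the metabolic genes 0.04 and -1.01, and for the repressed genes -0.51 and 0.97. The median of all genes was taken only without this division, at 0.02 in marrow and -0.08 in spleen. Against that value the marrow medians of the Myc targets, nucleolar and metabolic genes were close. The marrow median of the repressed genes was further from it than before. In spleen the first 3 lists stayed below all genes and the repressed genes above. Lists of this kind were drawn up with earlier results of these data known and are no independent evidence of a change in Myc activity.

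**Figure D5:**
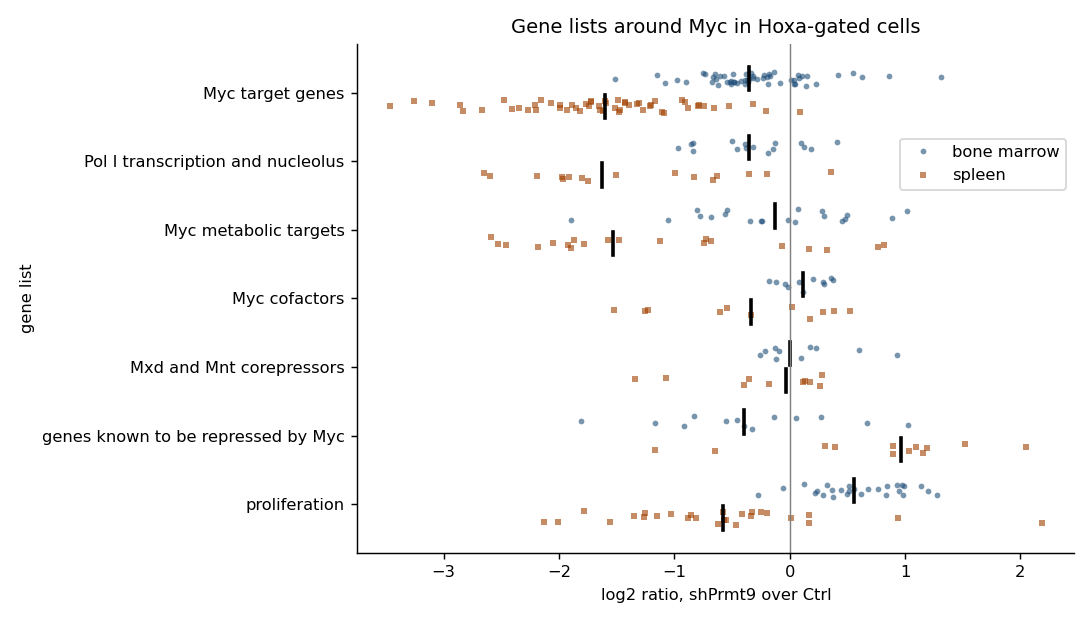
Log2 ratio of shPrmt9 to Ctrl for each gene of the lists in Hoxa-gated cells, 1 point per gene and tissue, with a black bar at each list's median. The Myc targets have medians of -0.35 in marrow and -1.60 in spleen, and the genes that Myc is known to repress -0.40 and 0.97.

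Over the 29 pairs of class and library with at least 50 cells, the genes whose log2 level followed Myc most closely, among 7494 ranked, were Smyd3 (Pearson r 0.935), Gar1 (0.926), Tsr1 (0.918), Mtap (0.916) and Ppan (0.915). Of the members Mxd4 had 0.571 and Mnt 0.482, while Mxi1 had -0.527 and Mxd1 -0.657. Max had -0.037 and Mxd3 -0.129. The pairs share libraries, mice and depth, so these are descriptions of likeness in level with no test.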

How the data were processed

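Droplet 3′ single-cell libraries of marrow and spleen were sequenced from 4 groups with 1 library each. The deposited matrices hold UMI counts per gene and barcode that the authors made with Cell Ranger on mm10. The file headers name version 6.0.2 and the submitters' processing notes version 6.1.1. The authors' cell labels were not used here.

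Cells entered with 200 or more genes and no more than 20% of UMIs from mitochondrial genes. A cell joined a class when it held at least 3 of that class's markers and their summed level was at least 20% of the 90th percentile among such cells. Cells passing the gates of 2 lineages, which doublets can be, were left out and no doublet caller was run. A cell that passed the Hoxa gate and also the gate of neutrophil progenitors or immature neutrophils stayed with the Hoxa-gated cells. The authors' counts were summed per class and library and divided by total UMIs, as CPM. No test was possible with 1 library per group, so no p-value is given. The 95% intervals are exact (Poisson for levels, Clopper-Pearson for shares and ratios of 2 counts) and cover counting error only. A ratio within S100a8 ranges, and a spleen ratio over a marrow ratio, carries a normal approximation on the log scale. Gene lists used genes with at least 20 UMIs over both libraries, and a ratio past 2-fold was the size rule for counts of genes. Free RNA was estimated from B, T and erythroid marker lists that the class should lack. Each list's level in the class was divided by its level in the whole library, and the lowest share was used. Shares of cells with a UMI used cells thinned to 2000 UMIs.

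All 8 members were named. From each other list the 2 genes with the lowest and the 2 with the highest ratio per tissue were eligible for naming, and any other gene named was chosen after its values were seen. The members and lists were chosen with earlier results of these data known. Alternatives were TMM scaling (edgeR 4.0.16 on R 4.3.3), other gates and filters, the mean over cells and free RNA subtraction. Division by S100a8 level was added after seeing the data. Tables were made with Python 3.11.15, numpy 2.4.6, scipy 1.17.1 and pandas 2.3.3, and the interval code was tested on simulated data.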

Additional observations from a re-analysis of the deposited data

Results flagged for a closer look

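In 5 cases the ratio of shPrmt9 to Ctrl lay below 1 in one tissue and above 1 in the other, with neither counting interval holding 1. With 1 library per group and tissue none of these differences was tested between samples. Mnt in Hoxa-gated cells had a ratio of 0.846 in marrow and 1.99 in spleen, the second over the first being 2.35. Myc in B-like cells had 0.502 and 1.23 (2.44), Max in B-like cells 1.30 and 0.723 (0.558), and Mxd1 in B-like cells 0.509 and 1.43 (2.82). The marrow value of Mxd1 in B-like cells becomes 1.03 when cells that pass the gates of 2 classes are kept. Mxd1 in erythroid-like cells had 1.42 and 0.783 (0.550), and the spleen value becomes 1.40 with TMM scaling. B-like cells numbered 112 in BM-shPrmt9, and the marrow and spleen libraries also differ in Y-linked transcripts.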

How the results depend on the processing

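No paired analysis was possible because each group has 1 library. Of 55 values recomputed under other settings for the comparisons, 43 stayed near the main value and 12 moved away from it, with 0 changing direction. Near meant within the counting interval for ratios and shares of cells. For medians of lists it meant within a fixed distance, and for counts and percentages of genes within a fixed factor. Only ratios and medians could be marked as changing direction. For single genes and lists 652 of 734 stayed, 70 moved and 12 changed direction. Leaving out the Hoxa-gated cells that also pass a neutrophil gate (345 and 219 cells in marrow) gave a marrow Myc ratio of 0.433, a spleen over marrow ratio of 0.199 and medians of -1.28 and -1.10 for the Myc targets in marrow and spleen. It turned the marrow medians of the cofactors to -0.45, the repressed genes to 0.38 and proliferation to -0.98, and the spleen medians of protein stability to 0.38 and Myc transcription regulators to 0.028. The same step gave Mxd3 a marrow ratio of 1.98. A mean over cells gave Myc 0.685 in marrow, Mxd1 1.35 in spleen erythroid-like cells and 0.983 in marrow immature neutrophil-like cells. Free RNA subtraction gave Myc 0.0535 in spleen and 0.0673 for spleen over marrow. TMM scaling shifted spleen Hoxa-gated log2 ratios by 0.18 and spleen erythroid-like ones by 0.83. It gave -1.42 for the spleen Myc targets, and in mature neutrophil-like marrow cells 1.02 for Max and 1.01 for Mxd1. In spleen erythroid-like cells it gave 1.40 for Mxd1 and 1.17 for Mxi1. Keeping cells of 2 classes gave Mxd1 1.03 in marrow B-like cells. Without thinning, Myc was seen in 71.8%, 54.0%, 54.1% and 13.97% of Hoxa-gated cells. Within S100a8 ranges, added after seeing the data, the ratios were 0.980 and 0.176 for Myc and 0.983 for marrow Mxd1. The medians were -0.016 and -1.001 for the Myc targets, 0.042 for marrow metabolic genes and 0.093 for spleen protein stability. The causes were not tested. The 37 cells of Spleen-Ctrl limit every spleen value.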

Other observations

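The cells of the spleen that passed no gate were rich in Myc. Myc was 122 CPM in the 434 such cells of Spleen-Ctrl and 71.7 in the 2444 of Spleen-shPrmt9, while the Hoxa-gated cells of these libraries had 72.6 and 7.58, and Mxd1 was 63.1 and 47.2. In marrow the cells without a class had 42.8 and 31.7 of Myc and 257 and 301 of Mxd1. Which cells these are was not determined here. Megakaryocyte-like cells of marrow, only 10 in BM-Ctrl and 12 in BM-shPrmt9, had the highest shares of Myc and Mycn in the network of any class and library, at 44.1% and 59.9%.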
